A study of Mus musculus with 10 samples.

Results

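The endothelin system was examined in mouse cardiomyocytes through 7 genes: the ligands Edn1, Edn2 and Edn3, the receptors Ednra and Ednrb, and the converting enzymes Ece1 and Ece2. They were taken by symbol from the authors' deposited table, which lists 23337 genes. Of the 7, 6 are among the 14056 genes to which the authors gave an adjusted p-value, and Edn2 is not. The group was chosen because Edn3 was much higher in this same comparison, so the values of Edn3 are given as a description, with no test. The other 6 genes were added for their function.

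The samples were cardiomyocytes of wild-type mice, taken on postnatal day 14 and purified by fluorescence-activated sorting after collagenase perfusion of the heart. On postnatal day 1 every mouse had received 5e+08 vector genomes per gram of an AAV9 virus in which the cTNT (cardiac troponin T) promoter drives expression in cardiomyocytes. In the 5 GFP libraries the virus carried GFP alone, and in the 5 dnMKL1 libraries it carried dnMKL1 together with GFP, so AAV9, the promoter and GFP are common to both groups. dnMKL1 is a dominant-negative form of MKL1 (MRTF-A), a coactivator that works with the transcription factor SRF. Strain and sex are not given in the sources used here. The comparison asks which transcripts differ when dnMKL1 is made in heart muscle cells.

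Endothelins are short peptides that act on neighbouring cells. A precursor protein is first cut by furin-type proteases to an inactive form, big endothelin, and the converting enzymes then release the active peptide. The type A receptor (Ednra) binds endothelin-1 and endothelin-2 far more tightly than endothelin-3, while the type B receptor (Ednrb) binds all 3 about equally. In the heart, endothelin-1 is made mainly by endothelial cells and acts on cardiomyocytes through Gq, phospholipase C and calcium, with effects on contraction and growth. Endothelin-3 and the type B receptor are best known from the neural crest, where they are needed for pigment cells and the neurons of the gut.

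The stretches that encode the active peptides are shown because they are the part the 3 ligand genes have most in common. Each is 63 bases (21 codons) long, was found by its cysteine spacing in the GENCODE M21 transcripts (GRCm38, the same build as mm10), is printed 5′ to 3′ on the plus strand, and lies within exon 2 of a coding transcript of 5 exons. Capitals mark the bases at which the 3 genes are not all alike, and 45 of the 63 bases are shared by all.
Edn1, chr13:42303649-42303711: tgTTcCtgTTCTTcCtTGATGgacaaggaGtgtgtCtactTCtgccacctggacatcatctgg
Edn2, chr4:120161951-120162013: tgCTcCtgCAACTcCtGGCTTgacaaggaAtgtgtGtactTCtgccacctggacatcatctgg
Edn3, chr2:174761749-174761811: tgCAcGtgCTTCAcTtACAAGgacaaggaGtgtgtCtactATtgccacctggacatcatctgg
The differences lie mostly in the first codons, and the last codons are the same in the 3 genes. Edn1 and Edn3 were 79.4% identical here, Edn1 and Edn2 84.1%, and Edn2 and Edn3 76.2%. Over whole transcripts the longest run shared exactly was 21 bases between Edn1 and Edn3 and 29 bases between Edn1 and Edn2. It was 15 bases between the receptors and 17 bases between the converting enzymes, so a read longer than these runs matches 1 member of the pair at most.

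The deposited table holds 1 comparison and no values per library. Its base mean is a gene's normalized count averaged over the 10 libraries, and its fold change has a standard error (SE) that carries the spread between libraries. Levels given here as implied means were computed from these, as the mean normalized count of each group. The sign was read from Mkl1, the source of the vector's product, for which the authors' deposited table gave a log2 fold change of 9.80 (SE 0.15), so positive values mean higher in dnMKL1. Estimated library totals ran from 8803029 to 17123578 counts in GFP and from 8835136 to 17228615 in dnMKL1. Of all tested genes, 34.1% passed in the authors' deposited table (adjusted p-value under 0.05), 16.6% higher and 17.4% lower in dnMKL1. Scaling both groups to the same total, as an alternative, adds 0.29 to every log2 fold change, and 40.4% of genes were then higher and 6.60% lower. All 8 cardiomyocyte markers were abundant, with base means in the authors' deposited table from 10438 for Ryr2 to 594986 for Myh6, and 5 of the 8 were lower in dnMKL1.

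The endothelin genes did not move in 1 direction. Edn3 was far higher in dnMKL1 and Ednrb rose, whereas Edn1 and Ednra fell and the converting enzymes did not pass the test. By the calls of the authors' deposited table, 2 of the 6 tested members were higher and 2 lower, Edn3 among them. Beside this count stands the 34.1% of all tested genes, and nothing is read from it because Edn3 was chosen on this comparison. The median log2 fold change was 0.077 over the 6 members and 0.021 over all tested genes. Under total-count scaling 2 of the 6 were called, both higher, against 47.0% of all genes, and the falls of Edn1 and Ednra no longer passed.

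**Figure D1:**
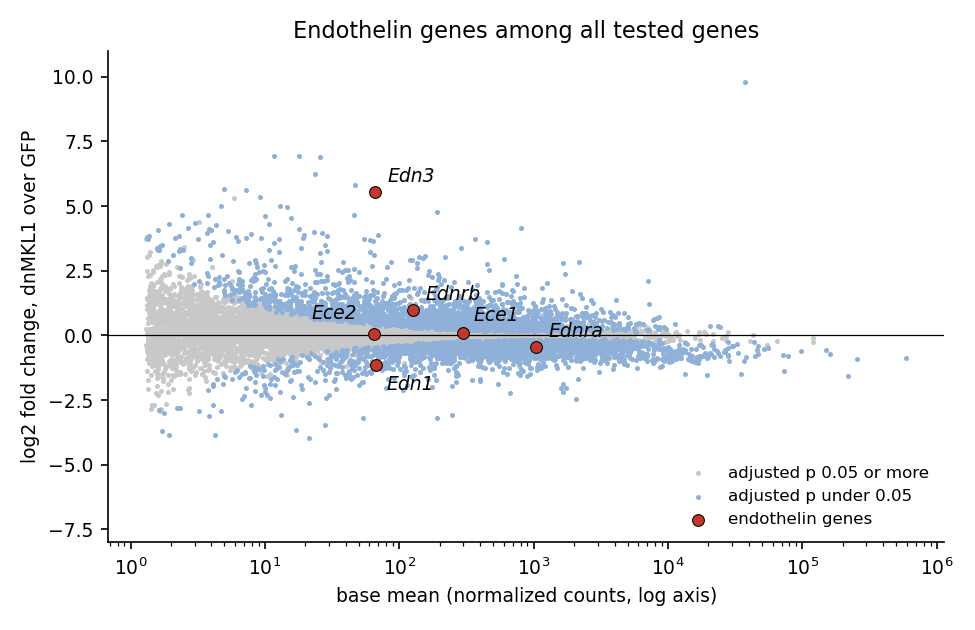
Log2 fold change (dnMKL1 over GFP) against base mean (normalized counts, log axis) for the 14056 tested genes, with 6 endothelin genes in red. Edn3 stands at 5.54, far above Edn1, a gene of nearly the same base mean.

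Edn3, which encodes endothelin-3, was close to absent in the GFP group and reached the level of a clearly expressed gene in dnMKL1. Its implied mean was 2.81 normalized counts in GFP and 130.1 in dnMKL1. The GFP value corresponds to about 13.8 reads over the 5 libraries together and the dnMKL1 value to about 725 reads. The authors' deposited table gave a log2 fold change of 5.54 (SE 0.80), a 46.4-fold difference with a 95% Wald interval from 15.7 to 137. The position of Edn3 was 9 when the tested genes were ordered from the highest log2 fold change down, and 33 of the tested genes had values above 4. With few reads in GFP the size of the fold rests on a small denominator. The gene lies at chr2:174760619-174784042 on the plus strand, and GENCODE M21 shows no overlapping gene.

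The libraries varied widely in Edn3. The SE of a gene can be turned into the spread between libraries that the negative binomial model assigned to it, given here as a coefficient of variation (CV) that is common to both groups and leaves out counting noise. For Edn3 this CV was 75.2%. Among the 1402 tested genes with a base mean within 1.5 times that of Edn3, the median SE in the authors' deposited table was 0.21, and 99.5% had a smaller SE than Edn3. The few reads of Edn3 in GFP enlarge its SE by counting noise as well, so this rank does not measure spread between libraries alone. Which libraries were high or low cannot be read from the table, and whether 1 library decides the value was not tested.

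The genes most like Edn3 were sought by distance in log2 fold change and log2 base mean, a likeness over the 2 conditions and not over libraries. They were Cdh3 (P-cadherin), Dusp4 (a phosphatase that switches off MAP kinases), Ildr2, Gdf15 (a secreted stress cytokine) and Kcne1l (a potassium channel subunit). On the log2 scale the authors' deposited table gave them 5.81 (SE 0.64), 4.66 (SE 1.04), 6.22 (SE 1.30), 3.88 (SE 0.43) and 4.78 (SE 0.64). Like Edn3, Cdh3 had an implied mean under 3 normalized counts in GFP, at 1.65, and reached 92.5 in dnMKL1. Ildr2 went from 0.627 to 46.7.

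Edn1 encodes endothelin-1, the main endothelin of the heart and vessels, and it fell. Its implied mean was 91.9 normalized counts in GFP and 41.6 in dnMKL1, or about 451 and 231 reads over the 5 libraries of each group. The authors' deposited table gave a log2 fold change of -1.15 (SE 0.45) with an adjusted p-value of 0.0334. The dnMKL1 level was thus 45.2% of the GFP level, with a 95% Wald interval from 24.6% to 83.1%. The CV between libraries was 47.3%, and 97.4% of 1406 genes of like base mean had a smaller SE in the authors' deposited table. Under total-count scaling the log2 fold change was -0.86 and the adjusted Wald p-value 0.104. Edn1 lies at chr13:42301476-42307990 on the plus strand. An antisense gene, Gm47118, overlaps it and is not listed in the authors' deposited table, so reads of the pair cannot be told apart.

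Endothelial cells are the usual source of Edn1, and no marker of these cells passed the test. Of 12 endothelial markers, 0 were called by the Wald test of the authors' deposited table, against 34.1% of all tested genes. By the same test 0 of the 12 had an unadjusted p-value under 0.05. Their summed implied means were 3915 normalized counts in GFP and 4081 in dnMKL1. For the most abundant, Kdr, Pecam1 and Tie1, the authors' deposited table gave 0.096 (SE 0.29), -0.072 (SE 0.30) and 0.075 (SE 0.29) on the log2 scale. Endothelial transcripts were thus present in the sorted libraries of both groups, and their part in the fall of Edn1 was not tested. In bulk RNA, fewer cells of a type and less RNA per cell cannot be told apart.

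Edn2, the ligand known mainly from gut and ovary, was hardly detected. Its base mean of 0.6 in the authors' deposited table is low enough for the reads behind it to be worked out, and 1 combination of whole reads fits. The GFP libraries held 1 read in all, in the library with a size factor of 0.660, and the other GFP libraries held 0. The dnMKL1 libraries held 4 reads, 3 in the library with a size factor of 0.882 and 1 in that with 0.921, and the others held 0. These libraries cannot be matched to replicate numbers. With reads in 3 of 10 libraries no difference was detectable at this depth, and the difference of 1.57 (SE 2.28) on the log2 scale that the authors' deposited table lists has a 95% Wald interval from -2.90 to 6.04.

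The makeup of the ligand transcripts therefore differed between the groups. Counted as implied means, the 3 ligands summed to 95 normalized counts in GFP and 172.6 in dnMKL1. Edn1 made up 96.7% of the sum in GFP and 24.1% in dnMKL1, while Edn3 went from 2.95% to 75.4%. Levels of different genes are better compared per length. Per kb of exon, the share of Edn3 was 1.55% in GFP and 61.2% in dnMKL1, and that of Edn1 98.0% and 37.6%. These shares inherit the large SEs of Edn1 and Edn3 and the choice of Edn3, and no test was made of them.

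**Figure D2:**
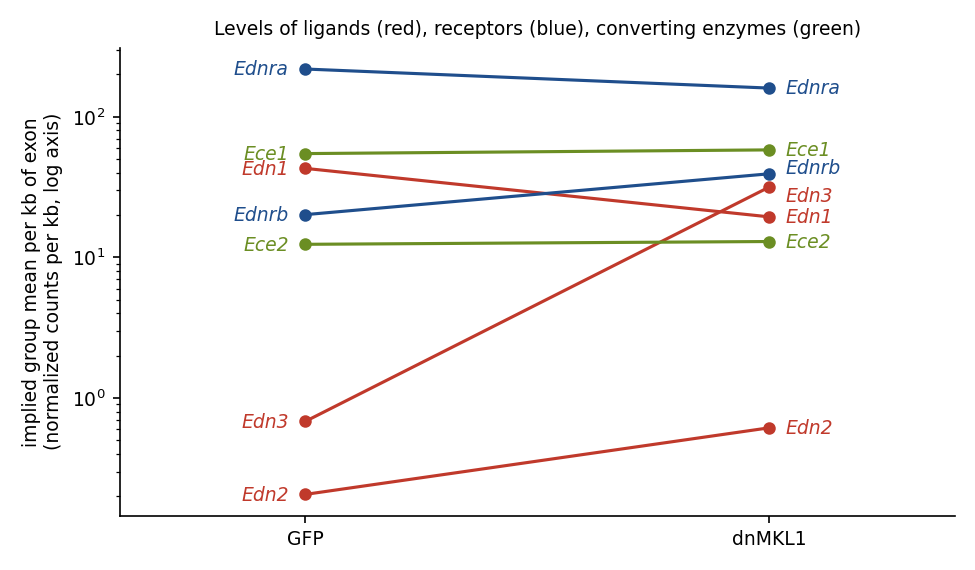
Implied group mean per kb of exon (normalized counts per kb, log axis) of the 7 genes in GFP and dnMKL1, with lines joining the groups. Edn3 goes from 0.682 to 31.6 and passes Edn1, which goes from 43.0 to 19.4.

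Ednra, the type A receptor through which cardiomyocytes respond to endothelin-1, was the most abundant member and fell by a modest amount. Its implied mean was 1198 normalized counts in GFP and 876 in dnMKL1. The authors' deposited table gave a log2 fold change of -0.45 (SE 0.12) with an adjusted p-value of 5.89e-04. The dnMKL1 level was 73.2% of the GFP level, with a 95% Wald interval from 62.6% to 85.6%. The CV between libraries was 12.3%, the smallest of the 7 members. Under total-count scaling its log2 fold change was -0.16 and the adjusted Wald p-value 0.252. The fall was smaller than the median of the 8 cardiomyocyte markers, -0.54 on the same scale. The gene lies at chr8:77663031-77724464 on the minus strand, and 4933431K23Rik overlaps it on the other strand.

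Ednrb, the type B receptor, rose. Its implied mean was 86.0 normalized counts in GFP and 168 in dnMKL1, or about 421 and 934 reads over the 5 libraries of each group. The authors' deposited table gave a log2 fold change of 0.96 (SE 0.23) with an adjusted p-value of 1.44e-04. This is a 1.95-fold difference with a 95% Wald interval from 1.44 to 2.65. Its CV between libraries was 22.8%. Under total-count scaling it was 1.25 on the log2 scale, with an adjusted Wald p-value of 2.67e-07. That scaling adds the same 0.29 to every gene, so it could only enlarge this rise. Ednrb lies at chr14:103814625-103844402 on the minus strand with no overlapping gene in GENCODE M21.

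Within the receptor transcripts the type A form stayed the larger part. As a share of both receptors per kb of exon, Ednra was 91.6% in GFP and 80.3% in dnMKL1, and Ednrb 8.44% and 19.7%. Ednrb is also made by endothelial, endocardial, pigment and glial cells. The endothelial markers are given above. Of 4 tested endocardial markers 3 were higher in dnMKL1 (Npr3, Nrg1 and Cgnl1), against 16.6% of all genes. The 5 of the list summed to 275 normalized counts in GFP and 544 in dnMKL1, of which Cgnl1 alone gave 225 and 454. Cgnl1, Npr3 and Cytl1 are the most abundant of that list. The authors' deposited table gave log2 values of 1.01 (SE 0.14) for Cgnl1, 1.00 (SE 0.40) for Npr3 and -0.20 (SE 0.46) for Cytl1.

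Pigment cell and glial genes were sparse. Of the melanocyte list Tyr was listed at 0, and of the Schwann and enteric glia list Foxd3 was. Sox10, which both lists share, had a base mean of 2.19 in the authors' deposited table. The 8 melanocyte genes summed to 999 and 748 normalized counts in GFP and dnMKL1, nearly all of it Mitf, which is also made in heart muscle and fell by 0.50 (SE 0.15) on the log2 scale in the authors' deposited table. After it came Dct, at 0.11 (SE 0.27), and Pmel, at 1.37 (SE 0.57). In that list 1 of 5 tested genes was higher and 1 lower (40.0% called, against 34.1% of all genes). The 9 glial genes summed to 293 and 205, of which Erbb3 alone gave 252 and 147, so these sums mainly follow that gene. In the glial list 1 of 6 tested genes was higher (S100b) and 1 lower (Erbb3), or 33.3% called. Erbb3 and S100b were at -0.78 (SE 0.12) and 2.65 (SE 0.61) on the log2 scale of the authors' deposited table. The part of these cells in the change of Ednrb was not tested.

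The converting enzymes cut big endothelin to the active peptide, and neither passed the test. Ece1, the main one, had implied means of 290 normalized counts in GFP and 308 in dnMKL1. For Ece1 the authors' deposited table gave 0.087 (SE 0.18) on the log2 scale and an adjusted p-value of 0.779. The 95% Wald interval of the ratio ran from 0.828 to 1.36. Ece2, an enzyme of acidic compartments known mainly from brain, had implied means of 63.3 and 66.3. The authors' deposited table gave 0.066 (SE 0.20) for it, with an adjusted p-value of 0.856 and an interval of the ratio from 0.794 to 1.38. These intervals leave room for changes of about that size in either direction. Under total-count scaling the log2 fold changes were 0.38 and 0.35, with adjusted Wald p-values of 0.0796 and 0.144. Ece1 lies at chr4:137862237-137965229 and Ece2 at chr16:20629828-20646485, both on the plus strand. Gm13012 overlaps Ece1 on the other strand, and Gm49333 overlaps Ece2 on the same strand. Neither symbol is listed in the authors' deposited table, so any reads of theirs may have been counted for the member.

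**Figure D3:**
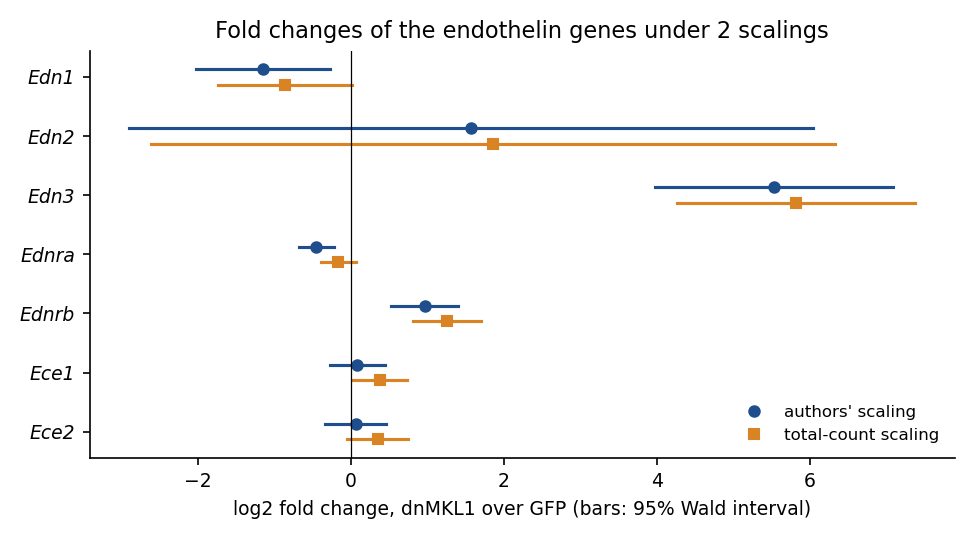
Log2 fold change (dnMKL1 over GFP) of the 7 genes with 95% Wald intervals, under the authors' scaling (circles) and total-count scaling (squares). The intervals of Edn1 and Ednra reach 0 under total-count scaling, that of Ednrb does not, and that of Edn2 spans 0 under both, while Edn3 was chosen for its value here.

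Ordered by level per kb of exon, the GFP group ran Ednra (219 normalized counts per kb), Ece1 (54.8), Edn1 (43.0), Ednrb (20.1), Ece2 (12.4), Edn3 (0.682) and Edn2 (0.206). In dnMKL1 the order was Ednra (160), Ece1 (58.2), Ednrb (39.3), Edn3 (31.6), Edn1 (19.4), Ece2 (13) and Edn2 (0.614). The gaps between Ece1 and Edn1 in GFP, and between Ednrb, Edn3 and Edn1 in dnMKL1, are to be read against CVs between libraries of 47.3% for Edn1 and 75.2% for Edn3. Those of Ece1 and Ece2 were 19.2% and 18.4%. No test between genes was made.

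Enzymes that cut or clear endothelins changed in different directions. Of 11 genes, 8 were tested, with 2 higher and 2 lower in dnMKL1 in the authors' deposited table (4 of 8 called, against 34.1% of all genes), and their median log2 fold change was -0.050. Mme, which encodes neprilysin, a cell-surface peptidase that degrades endothelins and natriuretic peptides, fell. Its implied mean went from 187 to 76.7 normalized counts, and the authors' deposited table gave -1.29 (SE 0.22), with an adjusted p-value of 1.37e-07. Mmel1, a relative of neprilysin, rose from 4.37 to 27.0, at 2.63 (SE 0.59) in the authors' deposited table, with an adjusted p-value of 7.11e-05. Ctsa, the lysosomal peptidase cathepsin A, rose by 0.42 (SE 0.08) on the log2 scale in the authors' deposited table. Pcsk7, a proprotein convertase, fell by 0.24 (SE 0.07) there, and was at 0.045 under total-count scaling. Furin, the best-known convertase of the precursors, was at 0.14 (SE 0.42) in the authors' deposited table, with an adjusted p-value of 0.85. Kel and Ecel1 were listed at 0.

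Genes that couple the receptors to calcium and kinases were called about as often as all genes. Of 26 tested, 8 were higher and 1 lower in the authors' deposited table (34.6% called, against 34.1% of all genes, of which 16.6% higher and 17.4% lower), and no test of the split was made. They had a median log2 fold change of 0.23. Gnai2 and Gnai3, inhibitory G protein subunits, and Itpr1, a calcium release channel, had the smallest adjusted p-values among those that rose. The authors' deposited table gave them log2 values of 0.52 (SE 0.10), 0.63 (SE 0.12) and 0.61 (SE 0.12). Prkd1, protein kinase D1, was the 1 gene that fell, at -0.48 (SE 0.15) in the authors' deposited table. Gnaq and Gna11, which couple the type A receptor to phospholipase C, did not pass, at 0.13 (SE 0.18) and 0.13 (SE 0.07) in the authors' deposited table. Under total-count scaling Gnaq and Gna11 were both called, at 0.42 and 0.42 on the log2 scale with adjusted Wald p-values of 0.0484 and 7.91e-09. In all, 19 of the 26 were then higher and 0 lower, against 40.4% and 6.60% of all genes, so the number called rests on the scaling.

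Genes that switch such receptors off included 5 of 11 that rose and 0 that fell in the authors' deposited table (45.5%, against 34.1% of all genes), with a median log2 fold change of 0.33, and no other gene of the list had an unadjusted p-value under 0.05. The largest change was that of Grk5, a kinase that phosphorylates active receptors, whose implied mean went from 104 to 381 normalized counts. For Grk5 the authors' deposited table gave 1.87 (SE 0.18), with an adjusted p-value of 8.94e-22. Rgs2, which shortens signalling by Gq, rose by 0.73 (SE 0.15) on the log2 scale in the authors' deposited table. Arrb1 (beta-arrestin), Grk6 and Adrbk2 (a receptor kinase) rose by 0.52 (SE 0.15), 0.45 (SE 0.16) and 0.36 (SE 0.09) in the authors' deposited table. Under total-count scaling the counts were again 5 higher and 0 lower.

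Calcineurin, NFAT and the genes of hypertrophic growth downstream of Gq were mixed. Of 18 tested, 1 was higher and 6 lower in the authors' deposited table (38.9%, against 34.1% of all genes), with a median of -0.12. Under total-count scaling the counts were 5 and 3. Rcan1, a calcineurin inhibitor that calcineurin itself induces, rose by 0.61 (SE 0.21) in the authors' deposited table. Camk2d, the main calcium-calmodulin kinase of the heart, Ppp3cb, a calcineurin subunit, and Mef2d, a transcription factor, fell by 0.74 (SE 0.10), 0.61 (SE 0.09) and 0.42 (SE 0.08) in the authors' deposited table. The call for Mef2d was lost under total-count scaling, with an adjusted Wald p-value of 0.181. Nppb, which encodes a natriuretic peptide, had the largest fall of the list, 1.22 (SE 0.27) in the authors' deposited table, and was still called under total-count scaling. Nppa, the gene of the atrial natriuretic peptide, was at 1.93 (SE 0.60) in the authors' deposited table with no p-value, despite a base mean of 4647. Why the p-value is missing is not stated there, so Nppa could not be called. None of the 4 NFAT genes passed, and the authors' deposited table gave them values from -0.10 for Nfatc3 to 0.33 for Nfatc4. Under total-count scaling Nfatc1 and Nfatc2 were called higher, at 0.35 and 0.39, with adjusted Wald p-values of 6.75e-04 and 8.81e-04.

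**Figure D4:**
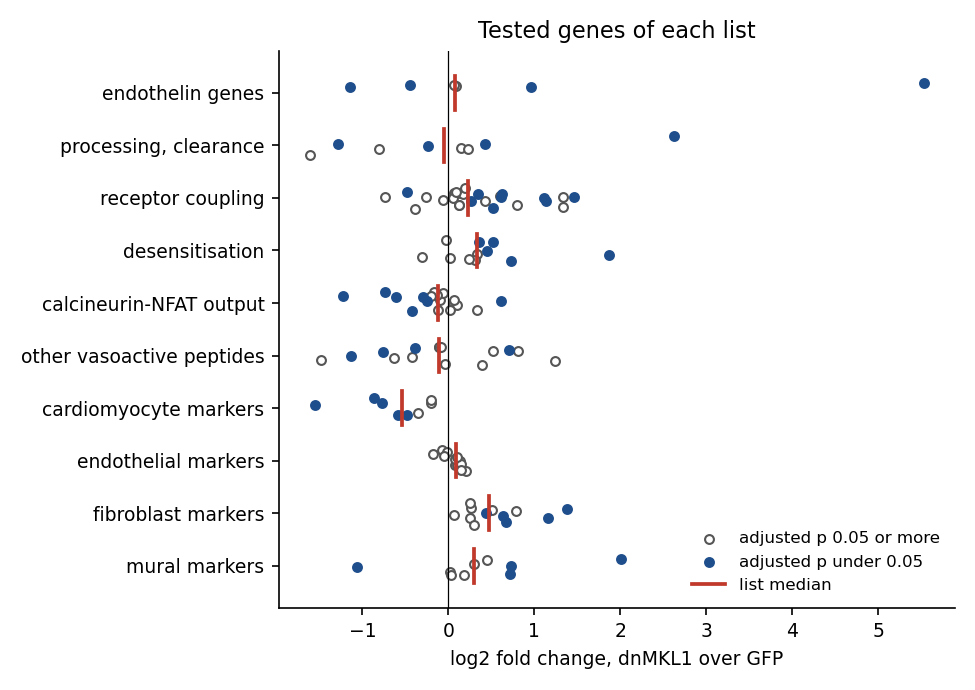
Log2 fold change (dnMKL1 over GFP) of each tested gene, grouped by list, with filled points for genes called in the authors' table and a red bar at the list's median. The endothelin genes spread from -1.15 to 5.54, while the endothelial markers lie between -0.18 and 0.20.

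Genes of other peptide systems that act on vessels and heart were looked up as well. Of 31 genes listed, 15 were tested, with 1 higher and 3 lower in the authors' deposited table (26.7%, against 34.1% of all genes) and a median of -0.11. Apln (apelin), Agt (angiotensinogen) and Agtr1a (an angiotensin receptor) fell by 1.14 (SE 0.36), 0.76 (SE 0.24) and 0.39 (SE 0.10) in the authors' deposited table. Adm, the gene of the dilator peptide adrenomedullin, rose by 0.70 (SE 0.29) there. Under total-count scaling the falls of Agt and Agtr1a no longer passed, and 3 genes were higher and 1 lower.

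Fibroblasts and mural cells also carry Ednra, which fell. Of 12 fibroblast markers 5 were higher and 0 lower in the authors' deposited table (41.7% called, against 34.1% of all genes), and their summed implied means were 5194 normalized counts in GFP and 8845 in dnMKL1. Col3a1, Gsn and Fbln1, the most abundant, rose by 0.44 (SE 0.15), 1.15 (SE 0.10) and 1.38 (SE 0.16) on the log2 scale there. Gsn alone gave 876 and 1951 of these sums and Fbln1 748 and 1944, so much of their difference comes from these 2 genes. The median of the 12 was 0.47 on the log2 scale, and the markers beyond the 5 did not pass. Of 9 mural markers 3 were higher and 1, Acta2, was lower (44.4% called), and the sums were 18254 and 15947, most of it from Acta2 and Abcc9. Acta2, an SRF target also made by immature cardiomyocytes, was at -1.06 (SE 0.25) in the authors' deposited table, Abcc9 at 0.30 (SE 0.15) and Cspg4 at 2.01 (SE 0.18). Of the macrophage markers 1 of 10 tested was higher and of the epicardial ones 1 of 8, and none was lower, beside the 16.6% and 17.4% of all genes. The part of these cells in the values of Ednra was not tested.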

How the data were processed

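The members, the gene lists and the tests were chosen with earlier results of these data known. Per the labels' protocols, 10 ng of RNA was amplified over 8 PCR cycles with a SMART-Seq kit, and 500 pg of cDNA entered a Nextera XT preparation. Per the submitters' processing notes, reads were aligned to mm10 with STAR 2.5.3a and counted with featureCounts (Subread 1.5.2). Which gene annotation was used, and whether counting used strand, is not given in the sources used here. The 1 file analysed is the authors' own comparison, whose headers are those that DESeq2 writes. Per the file headers it holds the deposited base mean (a signal in normalized counts), the deposited log2 fold change and its SE, the deposited Wald statistic (a score) and the deposited p-value with its Benjamini-Hochberg adjusted value. A gene was called where the adjusted value was under 0.05.

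Implied means treat the base mean as lying midway between the means of 2 equally large groups. Genes with a lone read gave the size factor of each library (at least 16 genes each) and, from it, its estimated total. In 206 genes with few reads, whose counts per library could be solved, the log2 ratio of the decoded means differed from the deposited one by a median of 0.086 and at most 0.30. The CV between libraries solves the SE of a 2-group negative binomial comparison for its dispersion. Intervals are 95% Wald intervals. Reads carry no molecular identifiers, so counts of reads cover counting error only. The labels call the replicates biological. Lengths and positions came from GENCODE M21, with exons merged per gene. Promoter windows came from RefSeq (GRCm38.p6), 250 bases before to 50 after each start. Genes named are the members, those called in each list (all where 6 or fewer, otherwise 3 per direction), the 3 most abundant of each marker list, and the 5 nearest to Edn3; Furin, Gnaq, Gna11, Nppa, Nppb and the NFAT genes were named after their values were seen. A gene that this rule names in 1 marker list is not reported here. Alternatives were the thresholds, filters and scalings given in the closing section. Scripts ran in Python 3.11.15 with scipy 1.17.1 and were tested on simulated data.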

Additional observations from a re-analysis of the deposited data

How the results depend on the processing

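Of the 6 tested members, 4 were called in the authors' deposited table, Edn3 among them, beside 34.1% of all tested genes. Nothing is read from this count, because Edn3 was chosen on this comparison. Under total-count scaling, which adds 0.29 to each log2 fold change, the count was 2, again with Edn3, beside 47.0% of all tested genes. The count was also 2 with a base mean of at least 100, which leaves out Edn1 and Edn3. It was 3 or 4 under the other alternatives. An absolute log2 fold change of at least 0.5 left 2735 of 4792 genes in the whole table and 18 of 29 pathway genes, since fewer genes can pass. Total-count scaling moved the share of higher genes among those called from 48.8% to 86.0% in the whole table, from 58.6% to 87.2% in the pathway lists and from 65.2% to 78.6% in the marker lists, by the shift itself. Edn1 lost its call at a threshold of 0.01 and Ednra at a minimum change of 0.5. No member changed sign under any alternative run, but this was fixed in advance. Thresholds and filters leave the fold change as it is, and centring on the median adds only -0.004. The 0.29 of total-count scaling is smaller than the falls of Edn1 and Ednra. With the longest transcript in place of merged exons, an alternative chosen after seeing the data, the share of Edn3 among the ligands per kb in dnMKL1 was 67.6%.

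No paired analysis was possible because the table holds no values per library. For the same reason no fit without each replicate was run, and whether 1 library decides a value is unknown. About 13.8 GFP reads limit the fold of Edn3, and 5 reads in all limit Edn2.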

Other observations

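The nearest protein-coding genes on each side of the 7 members were looked up in GENCODE M21. Of 14 such neighbours 11 were tested, and 1 of them was called in the authors' deposited table: Tmem184c, beside Ednra, at 0.30 (SE 0.09), while Ednra fell. Of all tested genes 34.1% were called, and no test of the difference was made. Zfp831, 49.8 kb from Edn3, was listed at 0. Phactr1, an actin-binding regulator of phosphatase 1 that lies 373 kb from Edn1, was at -0.61 (SE 0.26), with an adjusted Wald p-value of 0.0555 in the authors' deposited table.

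The promoter windows of the 7 members (10 windows, since Ece1 has 4) were searched on both strands for the CArG box, the SRF binding motif, and for the AP-1 motif TGANTCA. None of the 10 windows held either. Among all 32851 windows, 1.63% held a CArG box and 7.81% the AP-1 motif. This says only that these letters are not within those windows.

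Adm2, a peptide of the adrenomedullin family, had a log2 fold change of 3.63 (SE 1.55) in the authors' deposited table and no adjusted p-value. Its base mean there was 1.19 normalized counts, so this rests on few reads. It was singled out after its values were seen.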
